A study of Rattus norvegicus with 12 samples.

Results

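The 9 genes described here encode proteins that a dividing cell needs to copy its DNA and to separate the copies: Cdc6, Rrm2, Pcna and Top2a act on DNA and its building blocks, Ccna2, Ccnb1 and Cdk1 drive the cycle forward, and Kif23 and Prc1 build the machinery that splits the cell. They were chosen by name, with earlier results of these data known. For each, the probe set annotated with that gene symbol and no other was taken, and where there were several, the one with the highest mean over all arrays. All 9 had such a probe set among the 14506 genes measured. Their levels were read in the uteri of 12 ovariectomized young adult female Lewis rats, animals that lack the ovaries, the main source of estrogens. The vehicle group received DMSO, the E2 group 17β-estradiol at 4 µg/kg per day, the 3-MC group 3-methylcholanthrene at 15 mg/kg per day, and the E2+3-MC group both compounds at these doses. 3-Methylcholanthrene is a polycyclic aromatic hydrocarbon that activates the aryl hydrocarbon receptor. Dosing lasted 3 days, uteri were taken 24 hours after the last dose, and each group held 3 rats with 1 Affymetrix array per rat.

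In a cell that enters the cycle, the replication genes are switched on first, by E2F transcription factors at the passage from G1 to S phase, and the mitotic genes follow in G2, largely through the B-Myb and FoxM1 regulators. In the ovariectomized uterus most cells rest, and estradiol is known to send epithelial cells through DNA synthesis and mitosis within days. A whole uterus mixes epithelium, stroma, muscle, vessels and immune cells, so that fewer cells of a type and less RNA per cell cannot be told apart in any value below.

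Levels are given as intensity, the summary of a probe set's brightness on a linear scale, and differences between groups as log2(intensity + 16) ± standard error (SE). A gene is named as called, or as risen or fallen, where limma gave an adjusted p under 0.05 over the 10154 genes left after the dimmest 30% were set aside. The number of arrays limits the precision, with a median SE of 0.22 over all genes tested for the difference between E2 and vehicle. For the 9 genes that SE was larger, from 0.23 (Pcna) to 0.43 (Rrm2). Array medians ranged from 86.3 to 124. The values of vehicle rat 1 were spread more widely than those of any other array: its interquartile range on the log2 scale was 2.70, and the remaining arrays lay between 1.87 and 2.35. The labelled tissue and the estradiol dosing showed in the arrays: mean log2 levels with vehicle were 12.11 for Myh11 (smooth muscle myosin), 9.35 for the uterine homeobox gene Hoxa11 and 11.20 for the estrogen receptor gene Esr1, and C3, a classic estradiol-induced gene, went from 5.86 to 12.55 with E2. Cyp1a1, the standard target of the aryl hydrocarbon receptor, lay under the dim limit in all groups, with mean log2 levels of 5.12 to 5.40, so these arrays give no check of exposure to 3-MC from it.

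With estradiol, 5 of the 9 genes rose against vehicle: Cdc6, Cdk1, Kif23, Rrm2 and Prc1, by 1.28 to 2.22. Of all genes tested, 8.7% were called higher in that comparison and 9.44% lower. With estradiol and 3-MC together, all 9 were called higher than with vehicle, against 6.06% of all genes called higher and 1.78% lower. Ccnb1, Ccna2, Top2a and Pcna were called in the latter comparison and not in the former. Tested directly, the difference between E2+3-MC and E2 was called for none of the 9 genes, and for 0% of all genes. With 3-MC alone none of the 9 was called against vehicle, again with 0% of all genes called. The 2 estradiol comparisons share the vehicle rats. The median difference of the 9 genes was 1.28 with E2, beside -0.11 over all genes tested, and 1.62 with E2+3-MC, beside 0.05. These counts describe the 9 genes and are not support of their own. The mean of 6 of the 9 genes with vehicle, and of 7 of 9 with 3-MC, lay under the limit of 6.44 that set dim genes aside, and none did with E2 or E2+3-MC, so these genes passed the limit through the groups in which they were high. With all 14506 genes tested, the same 5 genes were called with E2, and 8 of 9 with E2+3-MC, where Ccna2 missed the threshold (adjusted p = 0.0556).

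**Figure D1:**
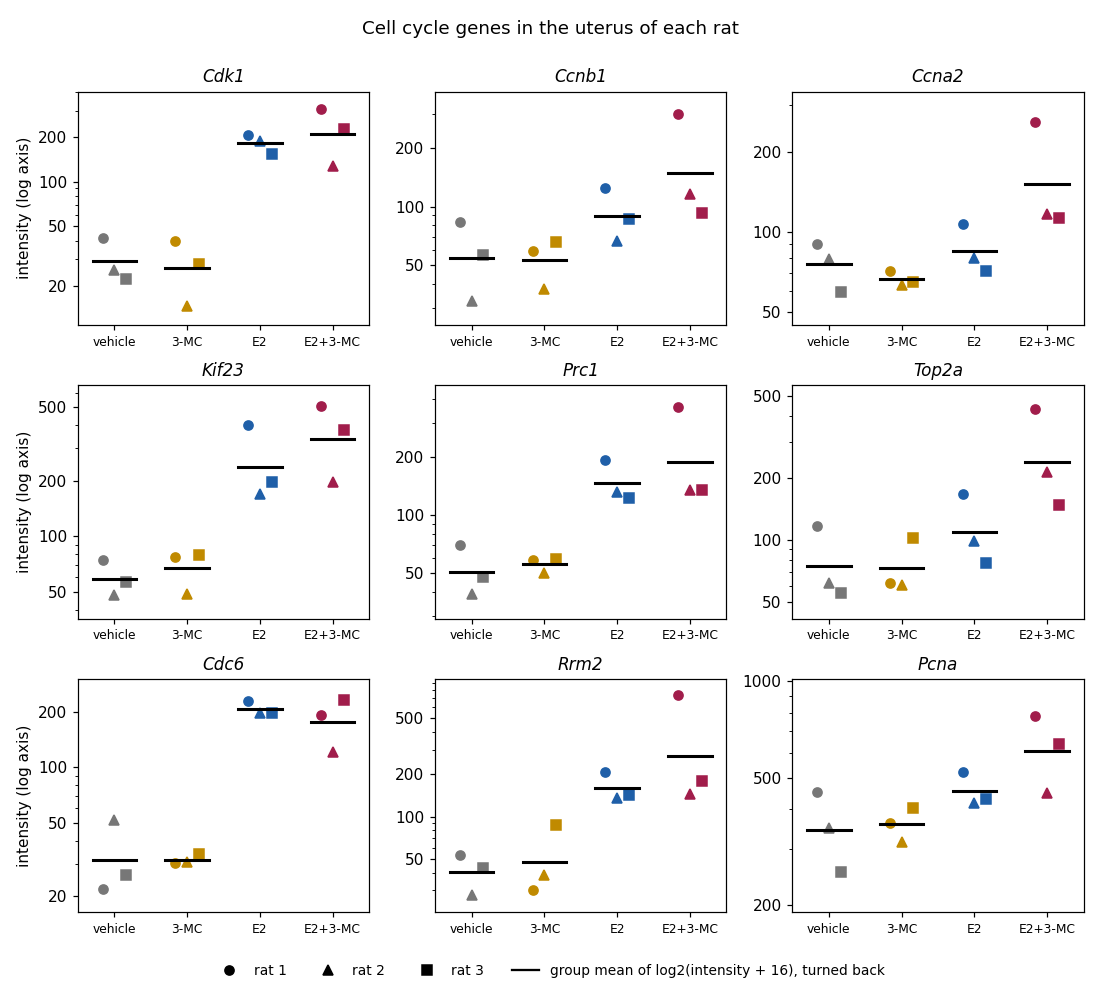
Intensity of each of the 9 genes (log axis) in each of 12 rats, by group, with the symbol shape giving the rat number within its group and the line the group mean of log2(intensity + 16) turned back to intensity. Cdk1, Kif23, Prc1, Cdc6 and Rrm2 lie higher in all 6 rats given estradiol than in all 6 rats not given it, and E2+3-MC rat 1 is the highest rat of its group for every gene but Cdc6.

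Promoter sequences were available from RefSeq, with the build GRCr8, for 6 of the 9 genes (Cdk1, Ccnb1, Kif23, Prc1, Top2a and Pcna). Ccna2, Cdc6 and Rrm2 had no entry. Each window runs from 250 bases before to 50 bases after the start that the promoter table uses. That start is the 5′ end of the gene record for Ccnb1, Top2a and Pcna, and lies inside the record by 41 bases for Cdk1, 169 for Prc1 and 1327 for Kif23, so that the Cdk1 stretch below reaches into its record and those of Prc1 and Kif23 lie wholly within theirs. Promoters of genes that peak in G2 and mitosis are known, mostly from human and mouse cells, to hold CCAAT boxes, which bind the factor NF-Y, and the cell cycle genes homology region, through which complexes of the MuvB core hold the gene off in resting cells and switch it on in G2. The windows were searched on both strands for the CCAAT box (CCAAT), the homology region (TTTGAA) and E2F sites (TTTGGCGC, TTTGCCGC, TTTCGCGC or TTTCCCGC), motifs that share no overlap in the matches found. Other forms of the homology region were not searched. The 140 bases before the start are shown for the 4 genes that hold a homology region in this form. Ccnb1 is shown too, as it holds CCAAT boxes at a like distance and no match of the other motifs searched. Sequences run 5′ to 3′ in the direction of the gene and capitals mark every match, on either strand. The Cdk1 stretch is chr20:19265153-19265292 on the plus strand, Kif23 chr8:71320585-71320724 on the minus strand, Prc1 chr1:143659341-143659480 on the plus strand, Top2a chr10:84473094-84473233 on the minus strand and Ccnb1 chr2:33655226-33655365 on the minus strand.
Cdk1: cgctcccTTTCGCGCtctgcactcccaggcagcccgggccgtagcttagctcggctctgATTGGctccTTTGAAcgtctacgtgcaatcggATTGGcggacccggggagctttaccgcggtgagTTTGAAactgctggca
Kif23: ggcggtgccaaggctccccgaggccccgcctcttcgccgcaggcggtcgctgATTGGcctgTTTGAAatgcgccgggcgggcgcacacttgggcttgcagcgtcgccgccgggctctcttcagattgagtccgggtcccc
Prc1: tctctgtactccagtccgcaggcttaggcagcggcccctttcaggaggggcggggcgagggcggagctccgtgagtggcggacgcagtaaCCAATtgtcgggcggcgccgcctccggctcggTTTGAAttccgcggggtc
Top2a: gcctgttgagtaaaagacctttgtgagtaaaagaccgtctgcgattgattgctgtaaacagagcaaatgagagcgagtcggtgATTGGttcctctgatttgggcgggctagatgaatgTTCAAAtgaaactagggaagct
Ccnb1: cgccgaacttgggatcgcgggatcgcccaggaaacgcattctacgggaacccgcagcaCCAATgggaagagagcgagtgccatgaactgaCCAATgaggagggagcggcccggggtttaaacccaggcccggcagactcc

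A CCAAT box was found in 6 of the 6 windows, beside 37.5% of all 33469 RefSeq promoters of the same length and 37.4% of the 8863 that belong to genes tested on the array. The homology region was found in 4 of 6, beside 18.3% and 11.6%. An E2F site was found in 1 of 6, the Cdk1 window, at -133 to -126 from the start, beside 2.14% and 3.72%. In Cdk1, Prc1 and Top2a a CCAAT box was followed by a homology region 28, 27 and 30 bases further on, the homology region ending 11 to 17 bases before the start. A spacing of 27 to 30 bases was present in 0.194% of all promoters and in 0.0677% of those of genes tested on the array. Cdk1 holds a further pair, and Kif23 its single pair, with 4 bases between box and homology region, a spacing present in 0.0299% and 0.0338%. These spacings were chosen after the sequences had been seen. The Ccnb1 window held CCAAT boxes at -82 and -50 and no match of the homology region, and the Pcna window 1 CCAAT box at -168. A match is a stretch of letters and not a measured binding site. Genes with a homology region were among the 5 that rose with E2 (Cdk1, Kif23 and Prc1) and among the 4 that were not called with it (Top2a).

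**Figure D2:**
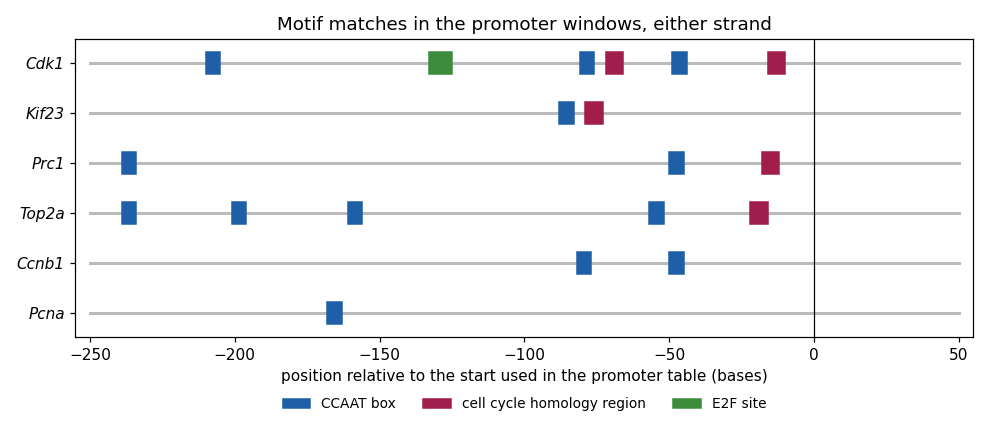
Positions of motif matches, on either strand, in the promoter windows of 6 genes, in bases from the start that the promoter table uses (x axis), with 1 line per gene. A CCAAT box appears on every line, a homology region in Cdk1, Kif23, Prc1 and Top2a, and the E2F site in Cdk1 alone.

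Cdc6, which loads the replicative helicase onto origins before S phase, separated the rats by estradiol. Its intensity was 21.9, 51.6 and 26.0 in the vehicle rats and 228, 196 and 196 in the E2 rats. With 3-MC it was 30.3, 30.6 and 34.0, and with E2+3-MC 192, 122 and 231. Every rat given estradiol lay above every rat not given it, and the E2 rats were close to each other. The difference from vehicle was 2.22 ± 0.24 with E2 (4.67-fold, adjusted p = 4.77e-06) and 2.01 ± 0.24 with E2+3-MC (adjusted p = 2.47e-05). Between E2+3-MC and E2 it was -0.21 ± 0.24, with a 95% interval of -0.72 to 0.29. Cdc6 was the only one of the 9 genes with a value below 0 in that comparison.

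Rrm2 encodes the small subunit of ribonucleotide reductase, the enzyme that makes deoxyribonucleotides for DNA synthesis. Its intensity was 53.0, 27.9 and 42.8 with vehicle, 209, 137 and 143 with E2, and 30.2, 38.7 and 87.3 with 3-MC. With E2+3-MC it was 732, 145 and 181. The rats with and without estradiol did not overlap, and E2+3-MC rat 1 was far above the other rats of its group, which lay in the range of the E2 rats. Rrm2 rose by 1.64 ± 0.43 with E2 (adjusted p = 0.0136), a call that was lost without E2 rat 1 (1.47, adjusted p = 0.0658). It rose by 2.35 ± 0.43 with E2+3-MC (adjusted p = 0.00180), and by 1.66 without E2+3-MC rat 1 (adjusted p = 0.0392). A second Rrm2 probe set, dimmer on average, differed by 1.21 ± 0.42 with E2 and by 1.87 ± 0.42 with E2+3-MC, and also had its highest value, 418, in E2+3-MC rat 1.

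Pcna, the sliding clamp that holds DNA polymerase on its template, lay well above the dim limit in every group. Its intensity was 453, 350 and 254 with vehicle, 521, 417 and 431 with E2, 362, 316 and 404 with 3-MC, and 783, 450 and 639 with E2+3-MC. The groups overlapped, since vehicle rat 1 was higher than 2 of the E2 rats and than the lowest E2+3-MC rat. The difference with E2 was 0.39 ± 0.23 (adjusted p = 0.271). It reached 0.58 (adjusted p = 0.0334) without vehicle rat 1. With E2+3-MC Pcna rose by 0.80 ± 0.23 (adjusted p = 0.0453), a call that ended without E2+3-MC rat 1 (0.62, adjusted p = 0.262). It held only where vehicle rat 1 or E2+3-MC rat 2 was the rat left out, and ended with each of the other rats left out.

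Top2a, the topoisomerase that untangles replicated chromosomes, had intensities of 118, 61.7 and 55.4 with vehicle and 168, 99.1 and 77.2 with E2. With 3-MC they were 62.0, 60.2 and 102, and with E2+3-MC 434, 214 and 148. The E2 rats overlapped with the vehicle rats, whereas all E2+3-MC rats were above all vehicle rats. The difference was 0.47 ± 0.34 with E2 (adjusted p = 0.369). With E2+3-MC Top2a rose by 1.50 ± 0.34 (adjusted p = 0.00980), and the call was lost without E2+3-MC rat 1 (1.10, adjusted p = 0.0730).

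Among the regulators, Cdk1, the kinase that triggers mitosis, was the gene with the largest E2+3-MC minus 3-MC difference of the 9. Its intensity was 41.9, 25.4 and 22.1 with vehicle, 40.0, 14.5 and 27.9 with 3-MC, 205, 186 and 152 with E2, and 309, 127 and 227 with E2+3-MC. No rat given estradiol was as low as any rat not given it. Cdk1 rose by 2.12 ± 0.28 with E2 (4.35-fold, adjusted p = 5.35e-05) and by 2.31 ± 0.28 with E2+3-MC (adjusted p = 3.46e-05), and against 3-MC alone by 2.41 ± 0.28 (adjusted p = 2.42e-05). The difference between E2+3-MC and E2 was 0.19 ± 0.28, with an interval of -0.41 to 0.79.

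The cyclins that activate Cdk1 were less separated. Ccnb1, cyclin B1, the partner of Cdk1 at the entry into mitosis, had intensities of 83.1, 32.7 and 56.5 with vehicle, 58.9, 37.7 and 65.4 with 3-MC, 124, 66.5 and 86.4 with E2, and 301, 116 and 92.8 with E2+3-MC. Vehicle rat 1 lay within the range of the E2 rats, and all E2+3-MC rats were above all vehicle rats. The difference was 0.59 ± 0.35 with E2 (adjusted p = 0.258), and without vehicle rat 1 it was called (0.83, adjusted p = 0.0424). With E2+3-MC Ccnb1 rose by 1.23 ± 0.35 (adjusted p = 0.0344). Without E2+3-MC rat 1, with the same genes tested, the value was 0.77 (adjusted p = 0.222). The call also ended without vehicle rat 2 (adjusted p = 0.154), and, with an adjusted p of 0.0533 to 0.0568, without vehicle rat 3, E2 rat 1, E2 rat 3 or 3-MC rat 1.

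Ccna2, cyclin A2, which works in S phase and G2, had intensities of 90.2, 79.1 and 59.7 with vehicle, 71.2, 63.0 and 64.9 with 3-MC, 107, 80.0 and 71.2 with E2, and 259, 117 and 112 with E2+3-MC. The E2 and vehicle rats overlapped almost wholly. The E2+3-MC rats were above all other rats, E2 included, which held for no other gene of the 9. Between E2+3-MC and E2 alone, 16.7% of all genes were higher without overlap. The difference with E2 was 0.14 ± 0.26, with an interval of -0.40 to 0.69 (adjusted p = 0.740). With E2+3-MC it rose by 0.87 ± 0.26 (adjusted p = 0.0467), and the value without E2+3-MC rat 1 was 0.52 (adjusted p = 0.309). The call held only where vehicle rat 1, E2+3-MC rat 2 or E2+3-MC rat 3 was the rat left out, and ended with each of the other rats left out.

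Kif23 and Prc1 work together late in mitosis: Kif23 is the kinesin of the centralspindlin complex, and Prc1 bundles the microtubules of the central spindle where the cell will be cut. Kif23 had intensities of 74.2, 47.8 and 56.6 with vehicle, 77.7, 48.5 and 79.4 with 3-MC, 400, 169 and 197 with E2, and 507, 196 and 377 with E2+3-MC. The lowest rat with estradiol was above the highest without it. Kif23 rose by 1.77 ± 0.32 with E2 (adjusted p = 0.00102) and by 2.23 ± 0.32 with E2+3-MC (adjusted p = 1.82e-04). Prc1 had intensities of 69.7, 38.7 and 47.6 with vehicle, 58.3, 49.98 and 59.3 with 3-MC, 192, 132 and 123 with E2, and 363, 136 and 135 with E2+3-MC, again without overlap between rats with and without estradiol. It rose by 1.28 ± 0.30 with E2 (adjusted p = 0.00636) and by 1.62 ± 0.30 with E2+3-MC (adjusted p = 0.00183). Neither gene lost its call with E2 or with E2+3-MC in any of the alternatives run.

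Set against 3-MC alone, E2+3-MC was higher in 8 of the 9 genes, by 1.02 for Ccna2 to 2.41 for Cdk1, beside 6.82% of all genes called higher and 1.39% lower. The calls of Ccnb1, Ccna2 and Top2a each ended without E2+3-MC rat 1 (0.80, 0.67 and 1.13), without 3-MC rat 1 and without 3-MC rat 2, and that of Ccna2 also without 3-MC rat 3. The exception was Pcna, at 0.74 ± 0.23 (adjusted p = 0.0657), which was called after quantile normalization (0.53, adjusted p = 0.0160). Over all rats, the 6 given estradiol against the 6 not given it, all 9 genes were called higher, from 0.56 ± 0.17 for Pcna to 2.27 ± 0.20 for Cdk1, beside 15% of genes called higher and 10.6% lower. Ccna2 at 0.58 ± 0.18 (adjusted p = 0.0256) and Pcna (adjusted p = 0.0190) lost their calls without E2+3-MC rat 1, at 0.41 (adjusted p = 0.0747) and 0.47 (adjusted p = 0.0668). Both also lost them without 3-MC rat 2, and Ccna2 without E2 rat 1 or 3-MC rat 3. Groups without overlap, all higher with estradiol, were seen for 5 of 9 genes between E2 and vehicle (10.1% of all genes), 8 of 9 between E2+3-MC and vehicle (10.7%), 9 of 9 between E2+3-MC and 3-MC (25.7%), and 5 of 9 over all 12 rats (5.91%).

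**Figure D3:**
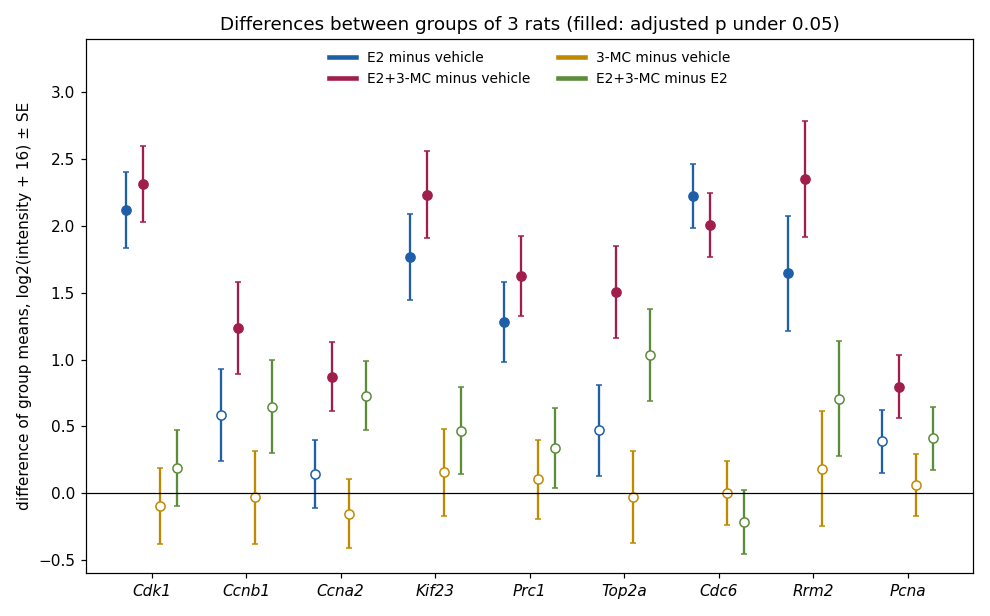
Difference between group means on the scale of log2(intensity + 16), ± SE from limma, for the 9 genes in 4 comparisons of 3 rats with 3, filled where the adjusted p was under 0.05. With E2+3-MC against vehicle all 9 points are filled, with E2 against vehicle 5, and with 3-MC against vehicle or E2+3-MC against E2 none.

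The addition of 3-MC to estradiol left no called change in the 9 genes. Between E2+3-MC and E2 the difference was above 0 for 8 of 9 genes, with a median of 0.47, while the median over all genes tested was also above 0, at 0.15. After quantile normalization, which took the latter to -0.01, the median of the 9 genes was 0.31. By adjusted p, no gene was called on the deposited scale, and after quantile normalization none of the 9 and 2 of all genes were. At the looser threshold of an unadjusted p under 0.05, on the deposited scale, 2 of the 9 genes and 937 of all genes differed in limma. The pair was Top2a, at 1.03 ± 0.34 with an interval of 0.31 to 1.76 (adjusted p = 0.488), and Ccna2, at 0.73 ± 0.26 with an interval of 0.19 to 1.27 (adjusted p = 0.496). Without E2+3-MC rat 1 they were 0.63 and 0.37. When the E2 and E2+3-MC arrays were fitted alone, Top2a was the only gene of the 9 called (adjusted p = 0.0290). In that fit 144 of all 10154 genes were called, 124 of them higher, beside none with all arrays. Only Ccna2 had groups without overlap here, beside 16.7% of all genes, while after quantile normalization 2 of the 9 genes did.

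Whether 3-MC altered the response to estradiol was tested as the interaction, the difference made by E2 in the presence of 3-MC less that made without it. None of the 9 genes was called in limma, and 0% of all genes were. At an unadjusted p under 0.05 stood 2 of the 9 genes, Top2a (1.06 ± 0.49) and Ccna2 (0.88 ± 0.36), each with an adjusted p of 0.977, and 298 of all genes. No gene was called after quantile normalization. The intervals are wide: for Cdk1 the interaction lay between -0.56 and 1.13, for Rrm2 between -0.76 and 1.81.

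With 3-MC alone the 9 genes differed from vehicle by -0.15 (Ccna2) to 0.18 (Rrm2), with a median of 0.00 beside -0.05 over all genes. None of the 9 passed an unadjusted p of 0.05 in limma on the deposited scale, where 82 of all genes did. By adjusted p, none of the 9 was called on that scale or after quantile normalization. The intervals still held differences of -0.69 to 0.51 for Cdk1 and -0.73 to 1.09 for Rrm2. Over all 12 rats the effect of 3-MC was not called for any of the 9 genes or any gene (0%) on the deposited scale. After quantile normalization 1 gene, none of the 9, was called by adjusted p. At an unadjusted p under 0.05 in limma, on the deposited scale, stood 616 of all genes and none of the 9.

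Rats of 1 group differed in most of the 9 genes together. Relative to the mean of its group, E2+3-MC rat 1 was higher by 0.70 on average over the 9 genes, from 0.12 for Cdc6 to 1.38 for Rrm2, while the median of all genes in this rat was higher by 0.02. E2+3-MC rat 2 was lower by -0.49 and rat 3 by -0.21. In the vehicle group rat 1 was higher by 0.29, beside 0.41 for the median of all its genes. Rat 1 was the highest of its group in 9 of 9 genes with E2, in 8 of 9 with vehicle and in 8 of 9 with E2+3-MC, and rat 3 in 7 of 9 with 3-MC. After quantile normalization these counts were 6, 7, 8 and 7. E2 rat 1 was higher than its group mean by 0.35 over the 9 genes, beside 0.21 for the median of all its genes, and by 0.13 after quantile normalization. Across the 12 rats, with group means removed, the correlation between a pair of the 9 genes ran from -0.21 to 0.94 over 36 pairs, with a median of 0.70, and of 0.66 after quantile normalization. The genes of a pair share their array and its scale, and the values describe these rats. Cdc6 was the exception on the deposited scale, with a median correlation of 0.15 with the other 8 genes against 0.67 to 0.82 for the rest. After quantile normalization the median was 0.13 for Cdc6, 0.48 for Pcna and 0.64 to 0.82 for the rest. The highest vehicle rat for Cdc6 was rat 2 and its highest E2+3-MC rat was rat 3.

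**Figure D4:**
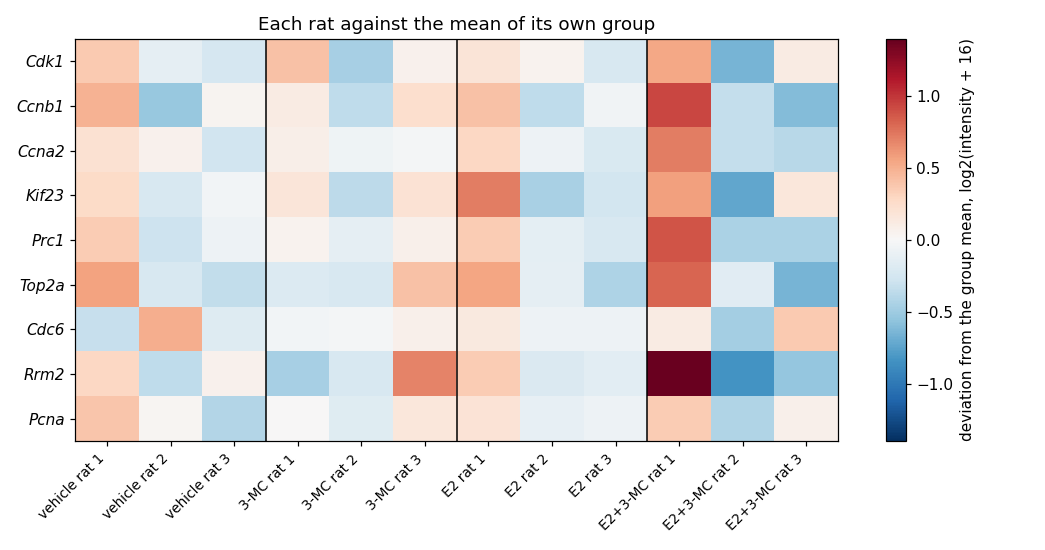
Deviation of each rat from the mean of its own group, on the scale of log2(intensity + 16), for the 9 genes (lines) and 12 rats (columns, with group borders drawn), red above and blue below the group mean. E2+3-MC rat 1 is red throughout, most for Rrm2 at 1.38, and Cdc6 departs from the other genes in vehicle rats 1 and 2.

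Markers of cell types moved with estradiol as well, and their part in the values of the 9 genes was not tested. The summed intensity of 12 markers of uterine epithelium was 4530 to 9541 with vehicle, 4203 to 5442 with 3-MC, 14968 to 17713 with E2 and 8262 to 15680 with E2+3-MC, and 7 of the 12 rose and 2 fell with E2. Of 11 macrophage markers tested, 5 rose with E2 and none fell, and of 9 endothelial markers 7 fell. Of 10 adipocyte markers 7 fell with E2 (median of all 10 -1.50), as did 3 of 3 blood markers (median -2.06). With E2+3-MC against vehicle, 4 of 12 epithelial markers rose and 1 fell, and 5 of 11 macrophage markers rose. In that comparison 3 of 9 endothelial and 3 of 3 blood markers fell, and none of the 10 adipocyte markers was called. Of 13 lymphocyte markers listed, 4 were bright enough to test and none was called. In E2+3-MC rat 1, where most of the 9 genes were highest, the epithelial sum of 12666 and the macrophage sum of 6835 lay inside the range of the group. Its stromal sum was the highest of the group (15330, against 13654 and 13979), and its endothelial sum the lowest (2276, against 2448 and 2365). Its adipocyte (4289) and blood (1618) sums were also the lowest, but close to those of rat 3 (4372.5 and 1689). Rat 2 lay higher in both (8731 and 4072). Vehicle rat 1 had the highest sums of its group for epithelium (9541) and macrophages (7885, against 2470 and 2629), and for adipocytes (16943, against 2800 and 3828). It was also highest in every other list summed except blood (8239, against 4257 and 8757). Its myometrium sum, for example, was 38816, against 22168 and 22761. The median of all genes in this rat lay 0.41 above its group. The adipocyte sums of the E2 rats, 2927 to 3149, lay between those of vehicle rats 2 and 3.

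The 9 genes were set beside 211 other cell cycle genes listed by role, of which 167 were measured and 128 were bright enough to test. Because the 9 genes and the lists were chosen with earlier results known, their shares of called genes are no test against each other. With E2, 4 of the 128 rose (3.12%, beside 8.7% of all genes) and 6 fell, and the median difference of -0.08 was close to the -0.11 of all genes. The 4 were Rpa3 (0.82), a subunit of the single-strand binding protein of replication forks, Ctps1 (0.82), which makes CTP, and 2 brakes of the cycle: Cdkn1a (2.24 ± 0.32, adjusted p = 1.05e-04), the p21 inhibitor of cyclin-dependent kinases, and Gadd45g (1.48), a stress-induced inhibitor of Cdk1. Those that fell included 2 other brakes, Cdkn1c (-1.31), which encodes p57, and Cdkn1b (-0.76), which encodes p27. The rest were Ccnd2 (-1.07), a G1 cyclin, Cdc25b (-0.69), a phosphatase that activates cyclin-dependent kinases, Orc3 (-0.87), a subunit of the origin recognition complex, and Tfdp2 (-0.74), a partner of E2F. These counts depended on the scale: after quantile normalization 17 of the 128 rose and 17 fell, where 19% of all genes rose.

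With E2+3-MC 9 of the 128 rose (7.03%, near the 6.06% of all genes) and none fell. After quantile normalization 17 rose and 9 fell, where 12.8% of all genes rose, and without the filter 19 of 167 rose (11.4%, beside 4.63% of all genes). The 9 that rose among the 128, on the deposited scale, were Cdkn1a (1.58), Tpx2 (1.23), which activates Aurora A on the spindle, Pttg1 (1.19), the securin that guards sister chromatids, Gadd45g (1.19), the mitotic kinase gene Plk1 (1.09), Tacc3 (1.02), which stabilises spindle fibres, Ccnb2 (0.88), which encodes cyclin B2, Cenpw (0.83), a centromere protein, and Gmnn (0.77), geminin, the inhibitor of origin licensing. Of these, Plk1 and Ccnb2 were not called without the filter. Of the 16 mitotic kinase, spindle and kinetochore genes tested, of 46 listed, none was called with E2 (8.7% of all genes called higher) and 4 with E2+3-MC (6.06%). After quantile normalization 3 were called with E2 and 7 with E2+3-MC. Without the filter, 11 of the 36 measured rose with E2+3-MC (4.63% of all genes) and none with E2 (6.34%). With E2, Tpx2 was at 0.60 (adjusted p = 0.197) and Tacc3 at 0.70 (adjusted p = 0.0605), and both were called after quantile normalization (adjusted p = 0.0455 and 0.00630). None of the 128 was called between E2+3-MC and E2 in limma. Of 23 replication fork and polymerase genes beside Pcna and Top2a, 1 rose with E2 and none with E2+3-MC. Among the origin licensing genes, Mcm6, a subunit of the replicative helicase that Cdc6 loads, rose by 0.94 ± 0.27 from 3-MC to E2+3-MC (adjusted p = 0.0404) and by 0.57 ± 0.19 over all rats with against without estradiol (adjusted p = 0.0375).

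**Figure D5:**
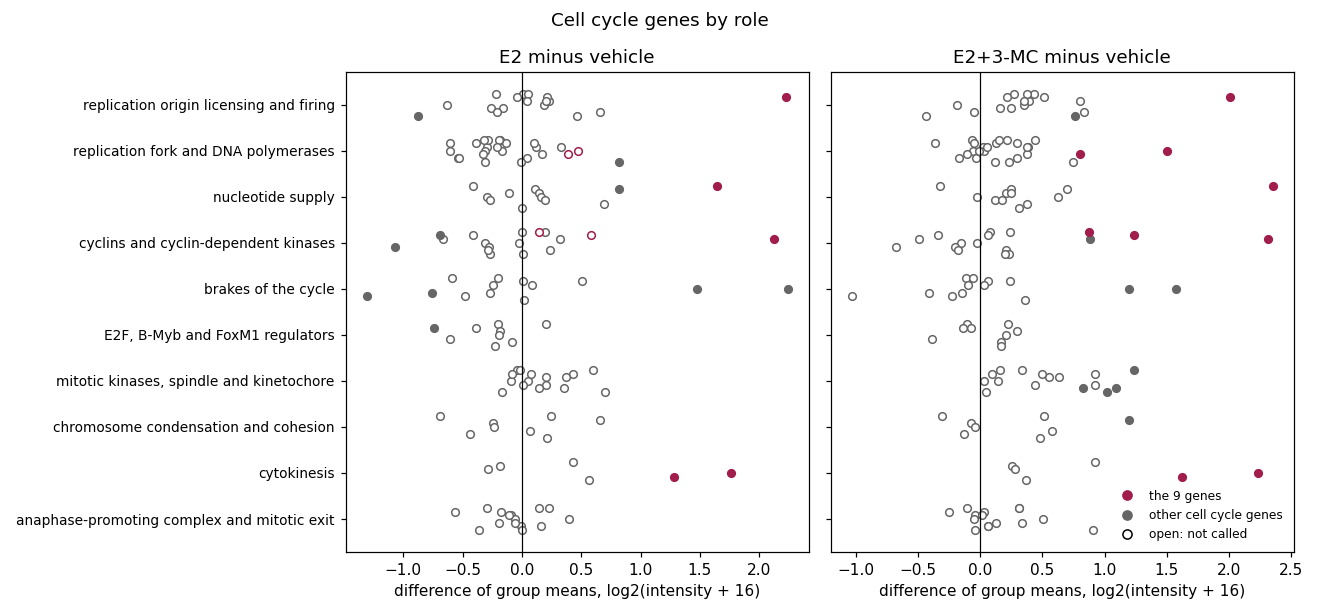
Differences in log2(intensity + 16) from vehicle with E2 (left) and with E2+3-MC (right) for the 9 genes and for other tested cell cycle genes, 1 point per gene, by role, filled where called. With E2 the largest rises among the other genes are those of the brakes Cdkn1a and Gadd45g, and with E2+3-MC 4 of 16 mitotic kinase, spindle and kinetochore genes are filled, a list with no filled point with E2 on this scale and 3 after quantile normalization.

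The genes whose pattern was most like that of the 9 were ranked by Pearson correlation, over the 12 rats, with the mean of the 9 genes. Among 10145 genes, 117 had a correlation over 0.9. The 10 closest were Rbfox3 (0.96), Rgs18 (0.96), Ifit3 (0.96), Epsti1 (0.95), Zbp1 (0.95), Col1a1 (0.95), Ifit2 (0.95), Pttg1 (0.95), Fes (0.95) and Gria1 (0.94). Pttg1 alone of these stood on a list of cell cycle genes. Ifit3, Ifit2, Epsti1 and Zbp1 are known as interferon-induced genes. The values for Ifit3 were 2.08 ± 0.30 with E2 and 2.24 ± 0.30 with E2+3-MC, and for Pttg1 0.66 ± 0.27 (adjusted p = 0.101) and 1.19 ± 0.27. With group means removed, the correlation of the 10 with the mean of the 9 genes was between 0.65 for Fes and 0.89 for Rbfox3. The 12 rats fall into groups with and without estradiol, and any gene that follows that division scores high on this measure.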

How the data were processed

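Uterine RNA of 12 rats, 1 Affymetrix array each, was measured by the authors. The authors deposited 1 intensity per probe set on a linear scale. Affymetrix Expression Console and PLIER, without versions, are named in the submitters' processing notes. The sources used here do not state a between-array normalization, a build or an annotation. Of 29214 probe sets, 15310 had 1 gene symbol in the platform annotation, 323 several and 13581 none listed. The probe set with the highest mean was kept for each of 14506 genes.

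Intensities were transformed as log2(intensity + 16) with no further scaling, which understates changes of dim genes. The dimmest 30% were left out (limit 6.44). All 12 arrays entered 1 limma model (limma 3.58.1, R 4.3.3; prior degrees of freedom 8.92), which leaves 8 residual degrees of freedom, where 3 rats against 3 alone have 4. P-values were two-sided and adjusted by Benjamini-Hochberg over 10154 genes. The fit was tested on simulated data.

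The 9 genes and all gene lists were chosen with earlier results of these data known. The rule named all 9 genes, up to 4 called genes of each list and comparison with the largest change (up to 2 by value where none was called), the 10 closest patterns, C3 and Cyp1a1. Other genes named, in counts of called genes or as checks of tissue, were chosen after their values were seen. Promoters came from RefSeq and were read with Python 3.11.15. Alternatives were other scalings, offsets, filters, variance models, probe sets and samples.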

Additional observations from a re-analysis of the deposited data

How the results depend on the processing

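The calls of Cdk1, Cdc6, Kif23 and Prc1 with E2 and with E2+3-MC, against vehicle and against 3-MC, held under every alternative that tested them. Leaving out E2+3-MC rat 1 took Cdk1 and Ccnb1 under the dim limit, and with the same genes tested (an alternative added after seeing the data) Cdk1 was called. With 1 rat left out at a time, E2+3-MC minus vehicle had 4 to 9 of the 9 genes called, and E2+3-MC minus 3-MC 4 to 9. The count was 5 to 9 over all rats with against without estradiol, and 4 to 7 for E2 minus vehicle. With the same genes tested, leaving out E2+3-MC rat 1 gave 5 for each of the former pair. Leaving out 3-MC rat 1 or 3-MC rat 2 gave 5 for E2+3-MC minus 3-MC. A fit of only the groups compared called 5 of the 9 between E2+3-MC and vehicle, 9 between E2+3-MC and 3-MC, and 1 between E2+3-MC and E2. Genes called overall in these fits were 296, 2270 and 144, beside 796, 834 and 0 with all arrays. Each such fit holds fewer arrays, and the cause of these shifts was not tested. An offset of 64 gave 6 for E2+3-MC minus vehicle and ended the Rrm2 call with E2 (adjusted p = 0.0660), as did the trend and robust options (0.0726). Genes called overall ranged from 961 to 3901 for E2 minus vehicle. The range was 296 to 2699 between E2+3-MC and vehicle, the highest without vehicle rat 1, 413 to 2647 between E2+3-MC and 3-MC, 1926 to 4886 over all rats with against without estradiol, and 0 to 144 between E2+3-MC and E2. Without vehicle rat 1, 3538 genes were called for E2 minus vehicle. The scale also moved the split of calls: 77.3% of genes called for E2+3-MC minus vehicle were higher on the deposited scale, 48.9% after quantile normalization and 59.8% after median centring. These shares were 47.9%, 49.4% and 65.7% between E2 and vehicle, 83.1%, 52.3% and 77.3% between E2+3-MC and 3-MC, and 58.5%, 48.2% and 66.8% over all rats. No called value of the 9 genes changed sign. Uncalled values changed sign in 19 of 196 for 3-MC minus vehicle and 6 of 196 for E2+3-MC minus E2. Rats of different groups share numbers, and 8 of 18 same-numbered pairs correlated over 0.1 (-0.27 to 0.24). Pairs with unlike numbers were not correlated, so these values cannot decide whether rats of the same number belong together. With the rat number as a replicate block in limma, 9 of the 9 genes were called for E2+3-MC minus 3-MC, Pcna included (0.74, adjusted p = 0.0268). With that block the number of all genes called for E2 minus vehicle went from 1842 to 2545.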
